A study of Mus musculus with 7 samples.

Results

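The transcripts of primary Sertoli cells were set against those of whole testis, both from wild-type mice at 4 weeks, by the rank of each gene's signal within its own array. The Sertoli array reads 45101 probe sets and the testis array 12488 probe sets of another design, so signals of the same gene are not on a common scale and only ranks were compared. A gene entered when it had at least 1 probe set annotated to that gene alone in both tables. This held for 8107 genes, of 18194 with such a probe set in the Sertoli table, 8251 in the testis table and 18338 in either. Each gene was represented by its brightest probe set on each array, and its rank runs from 0 for the dimmest to 100 for the brightest of the 8107 shared genes. A rank mixes how abundant a transcript is with how well its probes bind, so ranks of different genes give no order of abundance, and differences are read within a gene. Pairs of ranks are given with the Sertoli array first.

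The study hybridised total RNA to 7 Affymetrix arrays, 1 per group, under a title about germline stem cell loss in mice that lack ERM, the ETS-family transcription factor encoded by Etv5. Besides the wild-type pair there were arrays of testis and of Sertoli cells labelled ERM knockout at 4 weeks, of Sertoli cells labelled ERM knockout at 10 weeks, and of the mouse Sertoli cell line TM4 without and with transfection of ERM. The wild-type groups carry no allele or agent in their labels. Strain, the number of animals behind each array, how the Sertoli cells were isolated and whether they were cultured is information not given in the sources used here. For the knocked-out gene no comparison can be given, because Etv5 had no single-gene probe set in the testis table, and the other arrays are named below as they are labelled. With 1 array per group no difference had a replicate check and no test was possible, and precision is limited by the number of arrays.

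Within the seminiferous epithelium, Sertoli cells are its somatic component. They hold the germ cells in pockets of their cytoplasm, seal the tubule with tight junctions, feed the germ cells with lactate and secrete the growth factors of the stem cell niche. In mice at the age studied here the first wave of spermatogenesis has filled the tubules with spermatocytes and spermatids, so that germ cells make up most of the testis, beside the Leydig cells, peritubular cells, vessels and macrophages that surround the tubules. Whole testis contains Sertoli cells too. In such bulk RNA a lower rank in 1 preparation can mean fewer cells of a type or less RNA per cell, and these cannot be told apart.

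Ranks on both wild-type arrays were only loosely related, with a Spearman correlation of 0.331 across the 8107 genes, which share 1 library on each side and are not independent replicates. A gene differed by a median of 21.5 points in either direction, and the standard deviation of the signed differences was 33.4 points. A difference of 30 points, close to that standard deviation, was used for counting. By this measure 1480 genes (18.3%) stood higher in Sertoli cells and 1473 (18.2%) higher in testis, and 334 and 367 of these, respectively, differed by 60 points or more. Signals below 0.2 of an array's trimmed mean were treated as below a floor, which takes in all ranks under 10.6 in testis and under 8.22 in Sertoli cells. On the lower of the arrays 372 of the 1480 genes (25.1%) and 282 of the 1473 (19.1%) lay under it, and their differences rest on a gene being dim there.

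The measurement error that bears on these differences was read from genes with 2 probe sets on the same array, which measure 1 gene in 1 RNA and were ranked over all probe sets of the shared genes. On the Sertoli array such probe sets differed by a median of 18.0 points over 2247 genes, and 32.2% of the genes had a gap of 30 points or more. On the testis array the median gap was 24.7 points over 1671 genes, and 42.4% reached 30 points. Between Sertoli cells and testis 36.4% of genes did so. The share between preparations thus lay between the shares for probe sets of the same gene within 1 RNA. Within a design the gaps were small. Wild-type and knockout testis arrays differed by a median of 3.36 points and wild-type and knockout Sertoli arrays at 4 weeks by 3.22 points. The wild-type Sertoli array and the untransfected TM4 array, of the same design, differed by 9.61 points with a correlation of 0.726. Tissue and array design cannot be told apart here, neither for a single gene nor for a list of genes. The account below is given by lists of genes, with single genes as their data. Where a gene named below changed its side of 30 points with the mean over its probe sets, with only probe sets of plain name (no ending that marks shared or relaxed probes) or with the probe set brightest over its whole table, that difference is given beside it.

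**Figure D1:**
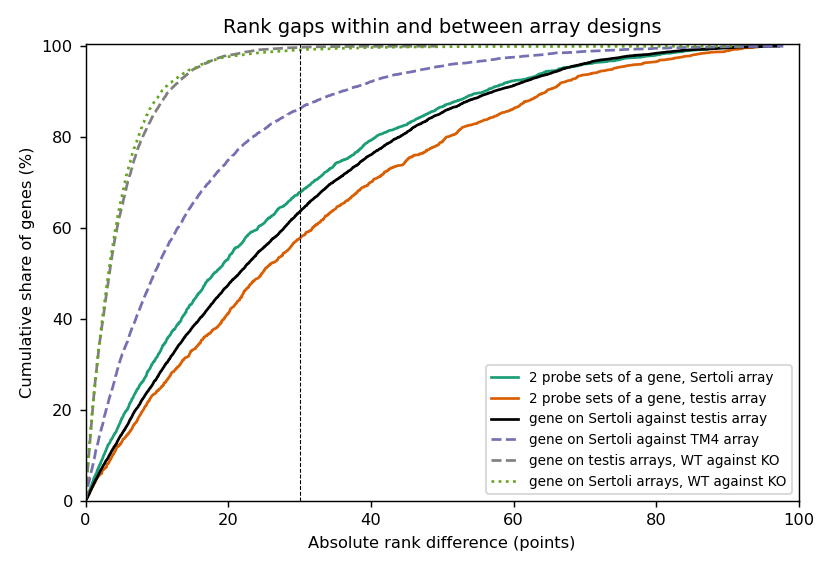
Cumulative share of genes (vertical axis, %) with an absolute rank difference up to the value on the horizontal axis (points), for 6 kinds of pairs. The solid black line of Sertoli against testis runs between the solid coloured lines for 2 probe sets of 1 gene on a single array, while the WT against KO lines of 1 design rise steeply at the left. The dashed vertical line marks 30 points.

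Genes at the top of 1 array tended to rank high on the other, with a wide spread. Of the 811 genes in the top 10% of the testis array 282 (34.8%) were in the top 10% of the Sertoli array. The median Sertoli rank of all 811 was 80.7, with quartiles of 52.2 and 93.9. The 811 genes in the top 10% of the Sertoli array had a median testis rank of 79.8. Genes at testis ranks between 40 and 50 had a median Sertoli rank of 48.3, with quartiles of 26.9 and 70.4. The number of probe sets also moved with the difference. Genes with 1 probe set in the Sertoli table had a median difference of -7.86 points (Sertoli minus testis). Those with 2 had 1.75 and those with 3 or more 9.57, and the cause of this trend was not tested. The closing section gives the counts over all genes without the choice of the brightest probe set, but not this trend.

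**Figure D2:**
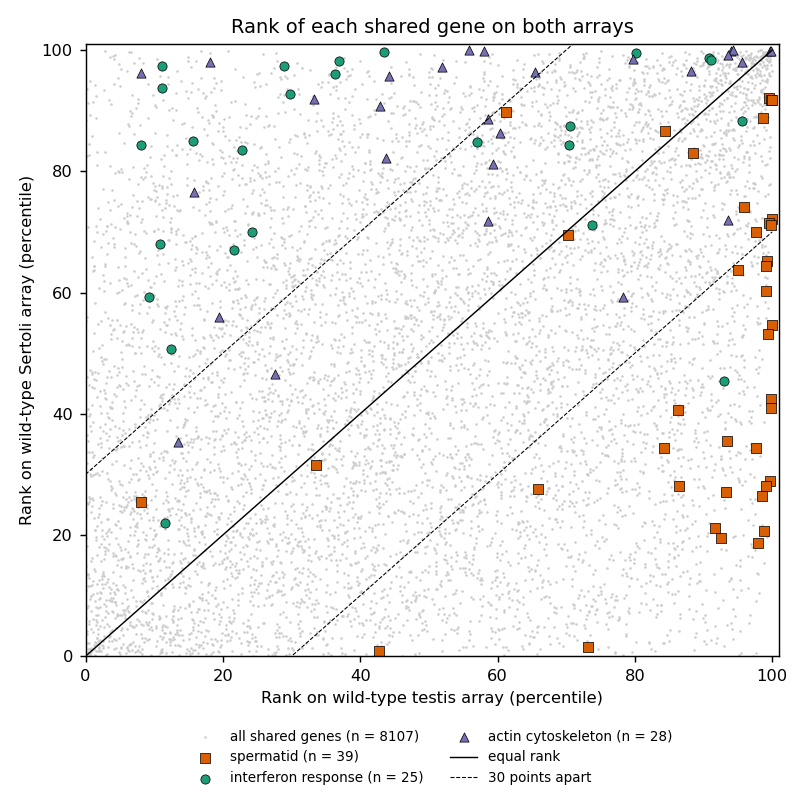
Percentile rank on the wild-type testis array (horizontal axis) and on the wild-type Sertoli array (vertical axis), 1 grey point per shared gene, with spermatid genes as orange squares, interferon response genes as green circles and actin cytoskeleton genes as purple triangles. Points outside the dashed lines differ by 30 points or more; spermatid genes gather at the right edge, at a median testis rank of 97.7 and a median Sertoli rank of 42.5, and interferon response genes at the upper left.

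Genes of spermatids, the haploid cells that become sperm, were the list farthest to the testis side among 31 lists examined. Of 62 listed genes 39 were shared, with a median difference of -38.9 points, and 24 were higher in testis and 0 higher in Sertoli cells by 30 points, against 18.2% and 18.3% of all shared genes. The median rank of the list was 97.7 in testis and 42.5 in Sertoli cells. Genes at the top of 1 ranking tend to stand lower in any loosely related ranking, and genes of like testis rank were therefore compared. The 27 spermatid genes in the top 10% of the testis array had a median Sertoli rank of 54.7, against 80.7 for all 811 genes there. Zp3r, a protein of the acrosomal matrix, ranked 18.7 in Sertoli cells and 97.9 in testis. Hils1, a linker histone of elongating spermatids, had a testis rank of 98.8 and a Sertoli rank of 20.7. For Spam1, the sperm hyaluronidase, the ranks on the Sertoli and the testis array were 1.52 and 73.1, and for Akap1, which anchors protein kinase A at mitochondria, 26.4 and 98.6. Apart from Spam1 these genes were near the top of the testis array, and all were in the lower part of the Sertoli array.

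Protamines replace histones in the sperm nucleus, and transition proteins precede them. Their genes ranked higher on the Sertoli array than most of the list. Prm1 ranked 91.7 in Sertoli cells and 99.99 in testis, and Tnp1 91.8 and 99.8. Prm2 ranked 72.1 and 99.9, and Tnp2 54.7 and 99.98. The difference of Tnp1 was -7.96 points but 75.4 with plain probe sets, and that of Tnp2 was -45.3 but -28.1 with the mean over probe sets. All 4 were near 100 in testis, and all 4 lay above the list's median on the Sertoli array. On the untransfected TM4 array, which reads the same probe sets and comes from a culture without germ cells, Tnp1 ranked 26.6, Tnp2 1.41 and Prm2 29.1, far below the Sertoli array. Prm1 ranked 78.2 there, so that its high Sertoli rank was largely shared with the cell line. On the array labelled Sertoli knockout at 10 weeks the ranks were 63.6 for Prm1, 65.2 for Tnp1, 43.3 for Prm2 and 12.7 for Tnp2. For the whole list the median rank was 28.3 in TM4, 30.8 on the 10-week array and 54.5 on the array labelled Sertoli knockout at 4 weeks.

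Genes of meiotic spermatocytes leaned the same way by less. Of 46 listed genes 25 were shared, with a median difference of -22.9 points, and 9 were higher in testis and 2 higher in Sertoli cells, against 18.2% and 18.3% of all shared genes. Ccna1, the cyclin of the meiotic divisions, ranked 11.5 in Sertoli cells and 80.9 in testis, and Pgk2, the germ cell phosphoglycerate kinase, 34.6 and 96.2. Hspa2, a heat shock protein of spermatocytes, ranked 84.0 and 99.6, and was at 18.3 in TM4. Pdha2, the germ cell subunit of pyruvate dehydrogenase, ranked 71.0 and 96.4, with 2.09 in TM4 and 4.16 on the 10-week Sertoli array. The list's median rank was 52.8 on the wild-type Sertoli array, 17.9 in TM4 and 18.2 on the 10-week Sertoli array, and 12 of the 25 members stood at least 30 points above TM4 and 0 below it, against 593 (7.31%) and 532 (6.56%) of the 8107 genes. Of the 39 spermatid genes 8 stood above TM4 by this measure and 2 below it. Spermatid and meiotic genes thus had higher median ranks on the wild-type Sertoli array than in TM4 and lower ones than in testis, and their part in the other differences was not tested.

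The larger of the 2 exceptions in this list was Sycp3, a core protein of the synaptonemal complex, which ranked 93.6 in Sertoli cells and 0.15 in testis. The testis signal of 9.65 came from its only single-gene probe set there, one with an ending (r) that marks probes picked under relaxed rules, and lay below the floor. On the array labelled testis knockout it ranked 0.2. On the Sertoli design Sycp3 ranked 8.79 in TM4 and 40.1 on the 10-week array. The testis reading of this gene was thus low on both testis arrays although spermatocytes are known to make it. The cAMP response element, bound by the activator CREM in spermatids and searched as TGACGTCA in the 250 bases before the RefSeq start, was found for 0 of 29 spermatid genes and 1 of 20 meiotic genes (Tesk1) with a promoter entry, against 177 of 6494 shared genes (2.73%) and 1.77% of 27025 genes, which says only that these letters are not in those windows.

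Spermatogonia, the dividing and stem stages, were shared in part. Of 27 genes of undifferentiated spermatogonia 19 were shared, with a median difference of 1.67, 5 higher in Sertoli cells and 4 higher in testis, against 18.3% and 18.2% of all shared genes. Their median rank of 41.5 in Sertoli cells stood beside 40.7 in TM4. Neurog3, a transcription factor of early spermatogonia, ranked 20.8 in Sertoli cells and 86.6 in testis, and Thy1, a surface protein used to enrich stem cells, 3.99 and 45.6. Sdc4, a syndecan that Sertoli cells also carry, ranked 99.3 and 25.8, and Bcl6b, a repressor induced by GDNF, 77.6 and 11.2. Zbtb16, which keeps stem cells undifferentiated, was at 41.5 and 67.4, a difference of -25.9 points that was 6.92 with the mean over probe sets and -32.1 with the probe set brightest over its table. Gfra1, the GDNF receptor, was below the floor on the testis array. Of 16 genes of differentiating spermatogonia 9 were shared, with a median of -6.33, and 2 were higher in testis. These were Kit, the receptor for stem cell factor (14.7 in Sertoli cells and 45.6 in testis), and Dmrtb1, a regulator of the entry into meiosis (29.6 and 97.4). Stra8, which acts at that entry, ranked 57.9 and 36.8, 21.1 points apart or 31.1 with the mean over probe sets.

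Several enzymes and structural proteins exist as a form found in most tissues and a form made in germ cells, and 20 such pairs were examined. Both genes were shared in 12 pairs, and over all pairs 15 genes of each kind. All of the 15 germ cell forms but Papolb are also members of the spermatid or the meiotic list. Their values are therefore not a result separate from those lists. The germ cell forms had a median difference of -38.9 points, 9 of 15 higher in testis, 0 higher in Sertoli cells and 14 below 0. The forms of most tissues had a median of 17.2 points, 5 of 15 higher in Sertoli cells and 1, Aurkb, higher in testis. Among all shared genes 18.3% were higher in Sertoli cells and 18.2% higher in testis. The difference of the common form exceeded that of the germ cell form by a median of 60.6 points, by at least 30 in 9 of 12 pairs and by more than 0 in 11. For capping protein alpha, which caps actin filaments, Capza2 ranked 95.8 in Sertoli cells and 38.5 in testis, and Capza3 19.5 and 92.6. For phosphoglycerate kinase Pgk1 ranked 97.2 and 44.4, against the 34.6 and 96.2 of Pgk2. For poly(A) polymerase Papola ranked 78.0 and 23.2, and Papolb 41.4 and 93.9. In these 3 pairs the common form was higher in Sertoli cells and the germ cell form higher in testis, each by more than 30 points. In TM4, on the Sertoli design, Capza2, Pgk1 and Papola ranked 96.1, 98.8 and 77.3, near their ranks in Sertoli cells. Capza3, Pgk2 and Papolb ranked 4.95, 41.7 and 24.7 there. Cytochrome c differed in kind, since Cycs ranked 99.5 and 27.7 while the germ cell form Cyct, at 74.4 and 64.4, was the 1 germ cell form above 0. Lactate dehydrogenase was the pair that went the other way, by -2.69 points, with Ldha at 96.3 and 99.5 and Ldhc at 99.3 and 99.9. Ldhc ranked 79.2 in TM4 as well.

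**Figure D3:**
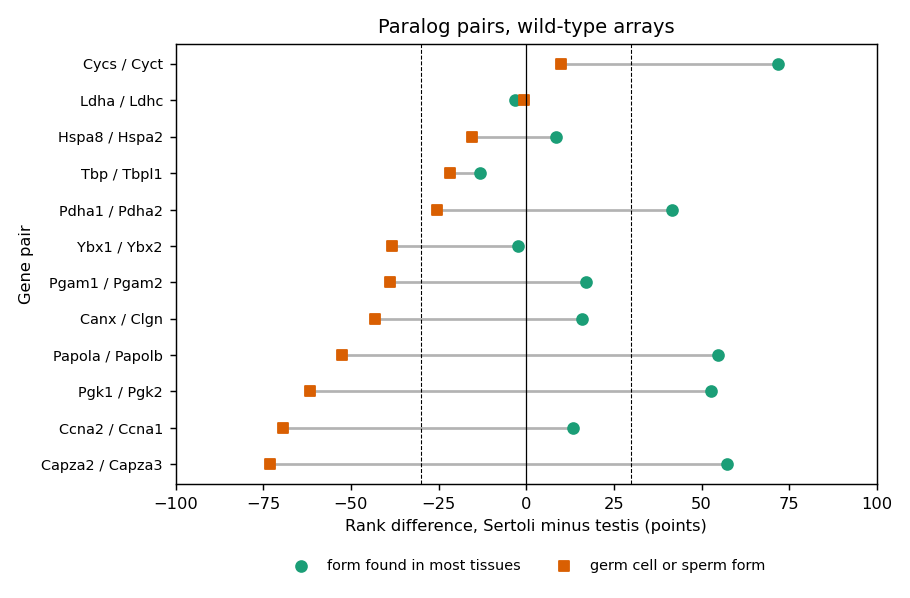
Rank difference, Sertoli minus testis (horizontal axis, points), of the form found in most tissues (green circles) and the germ cell or sperm form (orange squares) in the 12 gene pairs with both forms shared (vertical axis), on the wild-type arrays. A grey line joins each pair and dashed lines mark 30 points; the circle lies to the right of the square in 11 pairs, and Ldha and Ldhc nearly coincide.

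Sertoli cell genes as a list did not stand higher in the Sertoli preparation by rank. Of 43 listed genes 34 were shared, with a median difference of -0.72 points, 5 higher in Sertoli cells (14.7%) and 10 higher in testis, against 18.3% and 18.2% of all shared genes. Sox9 and Trf, defining genes of this cell type, were not among the shared genes and were not analysed here. The list split by gene. Wt1, a transcription factor that maintains Sertoli cells, ranked 92.4 in Sertoli cells and 38.8 in testis. Vim, their intermediate filament, ranked 99.9 and 58.0, Cldn11, a claudin of their tight junctions, 97.7 and 63.8, and Kitl, which supports spermatogonia through KIT, 95.1 and 62.6. The 32.5 points of Kitl were 9.91 with the mean over probe sets. Inha, the alpha subunit of inhibin, ranked 95.1 and 77.6, and the secreted chaperone Clu 99.9 and 99.6. These defining genes lay near the top of the Sertoli array, and Clu was at the top of both. On the untransfected TM4 array, of the same design, Wt1 ranked 6.62, Cldn11 21.9, Kitl 49.4, Inha 18.7 and Clu 49.1, lower than in the primary cells in each case. Markers that ranked low on the Sertoli array, given below, went both ways against TM4.

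Other defining genes ranked low on the Sertoli array. Fshr, the receptor for follicle-stimulating hormone, ranked 12.5 in Sertoli cells and 57.8 in testis. Amh, the hormone of immature Sertoli cells, ranked 30.4 and 77.9, and Gdnf, the factor on which germline stem cells depend, 23.2 and 59.8. The -36.5 points of Gdnf were -12.9 with the mean over probe sets. Gata4, a transcription factor of gonadal somatic cells, ranked 35.6 and 65.4, just inside 30 points. Inhbb, an activin subunit, ranked 34.2 and 32.4 but 91.7 in TM4. Nr5a1, which Leydig cells also express, differed by -61.9 points (-26.5 with the mean over probe sets), Inhba by -54.3 and Bmp4 by -62.3 (-29.2 with that mean). Amh and Gdnf ranked 49.99 and 43.3 in TM4, higher than in the primary cells. Inhba and Bmp4 did so too, at 77.5 and 28.3 in TM4 against 34.6 and 11.6. Fshr, Gata4 and Nr5a1 ranked 11.7, 18.1 and 10.8 in TM4, lower than in the primary cells. For the list as a whole the median rank was 47.3 in primary Sertoli cells against 36.6 in TM4, and 11 of 34 members ranked at least 30 points higher in the primary cells than in TM4 and 4 the other way, against the 7.31% and 6.56% of all shared genes. The 7 members in the top 10% of the testis array had a median Sertoli rank of 98.8.

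**Figure D4:**
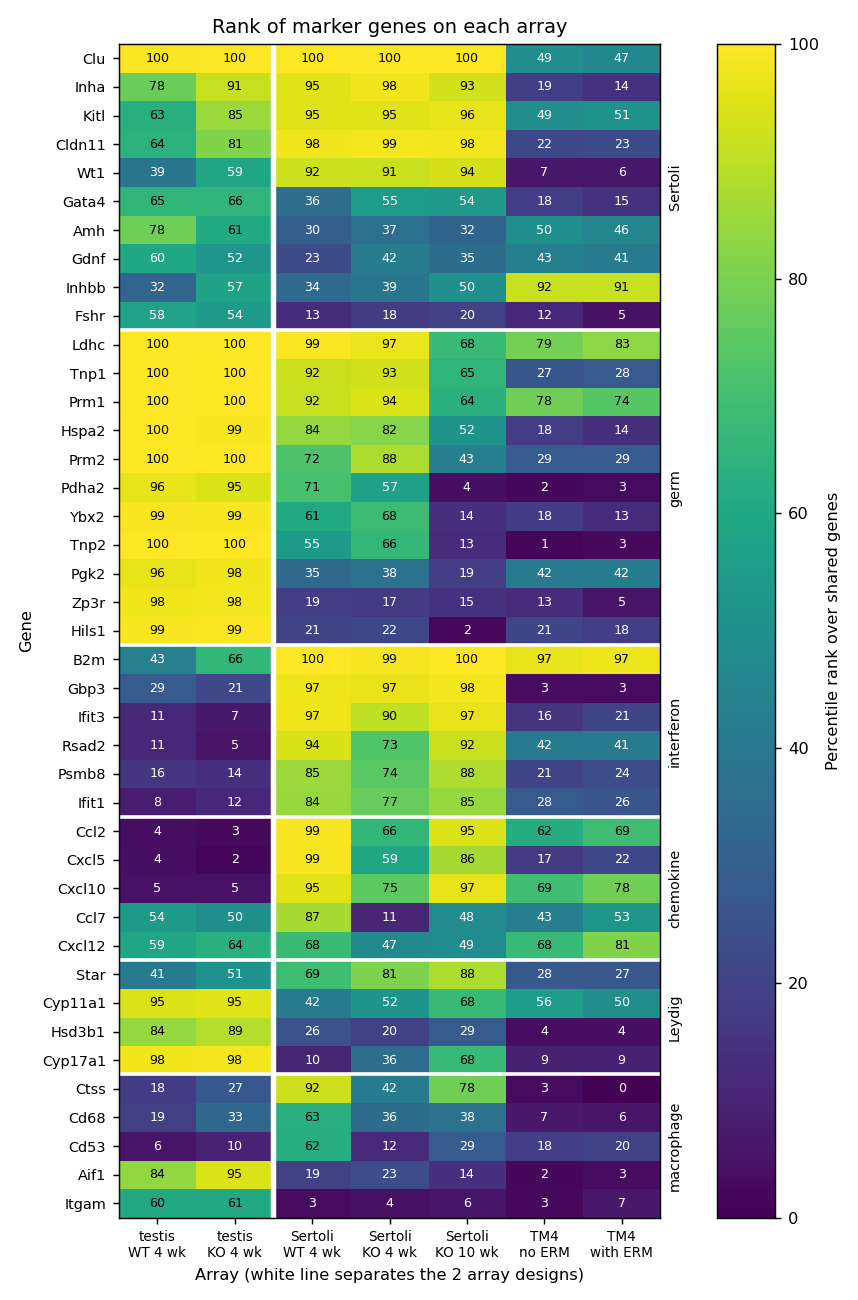
Percentile rank over shared genes (colour and printed whole numbers) of marker genes (vertical axis, grouped by list) on each of the 7 arrays (horizontal axis); a white vertical line separates the array designs. On the wild-type Sertoli array Clu, Cldn11, B2m, Ccl2 and Ldhc are near 100 while Fshr, Cyp17a1 and Itgam are below 15.

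Leydig cells, which make testosterone between the tubules, gave 15 shared genes of 27, with a median difference of -5.37, 6 higher in testis and 1 higher in Sertoli cells, against 18.2% and 18.3% of all shared genes. Enzymes of androgen synthesis were among the former. Cyp17a1 ranked 10.4 in Sertoli cells and 98.0 in testis, Hsd3b1 25.5 and 84.1, and Cyp11a1 41.7 and 94.5. The -58.5 points of Hsd3b1 were -3.65 with the mean over probe sets. The carrier Scp2 was the member on the Sertoli side (85.0 and 45.6), by 39.4 points or 18.7 with that mean, and Star, which brings cholesterol into mitochondria, was at 69.0 and 41.2, by 27.9 or 40.3 points. Within the Sertoli design Cyp17a1 ranked 10.4 on the wild-type array and 35.7 and 67.6 on the arrays labelled knockout at 4 and 10 weeks. The median rank of the list was 51.6 in wild type, also 51.6 in the knockout at 4 weeks and 75.5 at 10 weeks. Peritubular and smooth muscle genes (22 of 27 shared) had a median of -10.6, 3 higher in Sertoli cells and 6 in testis. The contractile genes Cnn1 (18.8 and 86.8), Actg2 (35.0 and 96.9) and Des (20.9 and 62.1) were on the testis side, while Acta2 ranked 96.7 and 92.7. The 3 members on the Sertoli side were Dmd (63.5 and 7.02), Actn1 (95.7 and 44.1) and Flna, by 36.4 points. The 56.5 points of Dmd were 17.3 with the mean over probe sets. The difference of Acta2 depended on the probe set, at 4.00 points with the brightest, -56.4 with the mean and -89.9 with plain ones.

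Lists of vessels, blood and the ducts had medians below 0, with counts to be read against 18.3% of all shared genes higher in Sertoli cells and 18.2% higher in testis. Endothelial genes (18 of 25 shared) had a median of -9.23, with 1 higher in Sertoli cells and 5 in testis, among the latter the endothelial nitric oxide synthase Nos3 (26.5 in Sertoli cells and 87.0 in testis) and the VEGF receptor Flt1 (11.2 and 65.7). Their median rank on the Sertoli array was 12.9. Red blood cell genes (12 of 18) had a median of -11.7, with 3 higher in testis, among them the globin Hba-a1 (53.0 and 95.8), whose -42.7 points were -26.7 with the mean over probe sets. Lymphocyte genes (16 of 21) had a median of -21.9, with 6 higher in testis, and genes of epididymis and rete (13 of 20) of -10.9, with 5. None of these last 3 lists had a member higher in Sertoli cells. Fibroblast and collagen genes (32 of 34) had a median of -3.37 with 3 on each side. Those on the Sertoli side were Ccn1 (84.7 in Sertoli cells and 5.54 in testis), Igfbp3 (75.3 and 10.1) and Pdgfra (87.1 and 44.5). Ccn1 and Igfbp3 were below the floor in testis, and the 79.1 points of Ccn1 were 16.05 with plain probe sets. On the testis side were Col1a1, a chain of type I collagen (32.2 and 72.7), and Fbln1, a matrix glycoprotein (13.6 and 91.6), among others. Col1a2, the other chain, ranked 58.4 and 70.8, a difference of -12.4 points that was 2.35 with plain probe sets.

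Interferon response genes were the list farthest to the Sertoli side of the 31. Interferons act through a promoter element to switch on antiviral proteins and the antigen-presentation machinery, and Sertoli cells are known to answer to them. Of 31 listed genes 25 were shared, with a median difference of 45.8 points, and 15 were higher in Sertoli cells and 1 higher in testis, against 18.3% and 18.2% of all shared genes. The median rank was 85.1 in Sertoli cells, 29.8 in testis and 28.2 in TM4. Of the 25 members 10 were in the top 10% of the Sertoli array. Of these 2 were also in the top 10% of the testis array, against 282 of all 811 genes there. On the common design 16 of 25 members stood at least 30 points above TM4 and 0 below, against 7.31% and 6.56% of all genes. Only 2 members lay below the floor in testis and 0 in Sertoli cells. Ifit3 and Ifit1, which bind foreign RNA, ranked 97.4 and 84.4 in Sertoli cells against 11.2 and 8.05 in testis. Rsad2, an antiviral enzyme, ranked 93.8 and 11.1, and Gbp3, a guanylate-binding protein, 97.4 and 28.9. B2m, the light chain of class I molecules, ranked 99.7 and 43.4, and Psmb8, the immunoproteasome subunit, 85.1 and 15.7. Mx2, an antiviral GTPase, was the member on the testis side (45.5 and 92.9).

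The promoters of these genes were read for the interferon-stimulated response element, searched as GAAA, any 2 bases and GAAA, on both strands and in the 250 bases before the start of transcription in RefSeq (build GRCm38.p6). It was found for 7 of the 20 interferon genes with a promoter entry (35.0%), namely Ifit1, Ifit3, Rsad2, Gbp2, Gbp3, Igtp and B2m, against 218 of 6494 shared genes (3.36%) and 936 of 27025 genes (3.46%). A match is a description of the letters and not a site of binding. The windows of 4 of these genes are printed 5′ to 3′ because they carry the element in different number, strand and distance, with its bases in capitals. Ifit1 lies at chr19:34640639-34640888, Ifit3 at chr19:34583279-34583528, Gbp2 at chr3:142620413-142620662 and B2m at chr2:122147437-122147686, all on the plus strand.
Ifit1: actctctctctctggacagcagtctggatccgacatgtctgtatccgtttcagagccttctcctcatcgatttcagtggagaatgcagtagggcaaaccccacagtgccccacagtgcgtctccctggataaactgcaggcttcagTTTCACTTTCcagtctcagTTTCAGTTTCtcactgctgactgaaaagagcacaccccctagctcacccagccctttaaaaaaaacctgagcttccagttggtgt
Ifit3: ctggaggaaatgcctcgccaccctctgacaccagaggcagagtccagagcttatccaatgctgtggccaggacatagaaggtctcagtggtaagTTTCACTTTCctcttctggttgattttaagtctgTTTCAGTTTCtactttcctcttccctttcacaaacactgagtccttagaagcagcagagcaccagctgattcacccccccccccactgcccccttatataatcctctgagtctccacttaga
Gbp2: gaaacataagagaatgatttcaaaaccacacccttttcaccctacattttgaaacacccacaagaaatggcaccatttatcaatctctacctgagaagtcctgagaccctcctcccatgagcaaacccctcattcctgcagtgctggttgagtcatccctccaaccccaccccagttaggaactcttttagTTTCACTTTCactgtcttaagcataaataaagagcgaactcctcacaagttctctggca
B2m: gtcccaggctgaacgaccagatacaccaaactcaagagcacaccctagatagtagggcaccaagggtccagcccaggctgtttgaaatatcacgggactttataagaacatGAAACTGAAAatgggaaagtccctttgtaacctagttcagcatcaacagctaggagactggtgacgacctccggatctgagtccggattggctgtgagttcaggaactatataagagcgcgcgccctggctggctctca
Ifit1 and Ifit3 hold 2 matches each on the minus strand, which begin 104 and 85 bases before the start in Ifit1 and 156 and 122 bases before it in Ifit3. Gbp2 holds 1 match at 59 bases on the minus strand, and B2m 1 at 139 bases on the plus strand. Gbp2 itself ranked 96.0 in Sertoli cells and 36.4 in testis.

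Chemokines, inflammatory genes and macrophage markers were high in part on the wild-type Sertoli array. Of 33 chemokine genes 24 were shared, with a median difference of 11.9, 8 higher in Sertoli cells (33.3%) and 3 higher in testis, against 18.3% and 18.2% of all shared genes. Ccl2, which attracts monocytes, ranked 98.9 in Sertoli cells and 3.57 in testis, and Cxcl5 and Cxcl10 98.6 and 95.4 against 4.08 and 4.71. Ccl7 ranked 87.1 and 54.4. Ccl4 and Ccl22 were on the testis side, at -68.9 and -65.7 points. Cxcl12, which guides stem cells to the niche, was at 68.3 and 59.1, 9.12 points apart with the brightest probe set, 45.1 with the mean and -19.0 with the probe set brightest over its table. Of 30 genes of inflammatory cytokines and receptors 26 were shared, with a median of 35.0, 14 (53.8%) higher in Sertoli cells and 3 in testis, to be read against the same shares. The cytokine Il6 ranked 80.6 and 8.46, its signalling receptor chain Il6st 83.3 and 22.0, and Cd44, a hyaluronan receptor, 92.7 and 9.78. Csf2 went the other way (13.5 and 78.1).

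Macrophage markers moved beside these lists. Of 36 listed genes 34 were shared, with a median difference of 7.14, 9 higher in Sertoli cells (26.5%) and 6 higher in testis, against 18.3% and 18.2% of all shared genes, and their median rank was 38.7 on the Sertoli array, 34.9 in testis and 22.4 in TM4. The lysosomal protease Ctss ranked 92.4 in Sertoli cells and 17.5 in testis, Cd68 63.0 and 19.1, and the tetraspanin Cd53 62.4 and 5.66. Aif1 and the integrin chain Itgam were on the testis side, at 19.3 against 83.6 and 2.92 against 60.2. Markers of this cell type therefore lay on both sides, 2 of the 34 were below the floor on the Sertoli array, and their part in the chemokine and inflammatory values was not tested.

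The wild-type values of these lists were set beside the arrays labelled ERM knockout, a second pair of Sertoli cells and testis at 4 weeks with the same probe sets. In that pair 1413 genes (17.4%) were higher in Sertoli cells and 1458 (18.0%) higher in testis by 30 points. Of the 1480 genes higher in wild-type Sertoli cells 1197 (80.9%) were also higher in the knockout pair, which is 84.7% of the latter's 1413. Of the 1473 higher in wild-type testis 1248 (84.7%) were so again, which is 85.6% of its 1458, and 1 gene in each direction passed 30 points the opposite way. The pairs share their probe sets, so a difference that comes from probes recurs in both, and the shares say only how alike the arrays of each design were. The chemokine list had a median of -0.5 in the knockout pair with 4 genes on each side, and Ccl7 went from 32.7 points in the wild-type pair to -38.9. The macrophage list had a median of -8.57, with 1 gene higher in Sertoli cells and 9 in testis, and Ctss went from 74.9 to 14.2. The inflammatory list had a median of 12.8, with Il6 at 17.3, and the interferon list 27.8, with 12 genes higher in Sertoli cells and 2 in testis.

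Among structural genes those of the actin cytoskeleton leaned to the Sertoli side. Sertoli cells carry dense actin bundles at the junctions that hold spermatids. Of 30 genes 28 were shared, with a median difference of 23.9, 13 (46.4%) higher in Sertoli cells and 0 in testis, against 18.3% and 18.2% of all shared genes. The median rank was 95.9 in Sertoli cells, 58.6 in testis and 96.4 in TM4. Of the 28 genes 17 were in the top 10% of the Sertoli array, where no gene can stand 30 points higher in testis. All 811 genes there had a median testis rank of 79.8. In the top 10% of both arrays were 6 of the 17, against 282 of the 811. Msn and Ezr, which link actin to the membrane, ranked 76.6 and 91.9 in Sertoli cells and 15.7 and 33.3 in testis. Cnn3, a calponin, ranked 98.1 and 18.1, the annexin Anxa1 96.2 and 8.04, and Actb 99.99 and 55.8. In the knockout pair the list had a median of 20.6, again with 0 genes on the testis side and 10 on the other. Cell junction genes (27 of 35 shared) had a median of 15.6, but with 4 higher in Sertoli cells (14.8%, below the 18.3% of all shared genes) and 1 in testis. The median was 1.77 for genes with 1 probe set in both tables, of which only 6 were left. Besides Cldn11 those higher in Sertoli cells were Dsp, a desmosomal plaque protein (66.6 and 7.76), the gap junction gene Gjb2 (53.2 and 12.4) and Ctnna1, which ties cadherins to actin (98.2 and 58.1). Cdh2, the main cadherin of the seminiferous epithelium, ranked 97.3 and 70.6, and Gja1 98.3 and 83.3. Basement membrane genes (19 of 21) had a median of -1.65, with 5 higher in Sertoli cells, among them the laminin chain Lamb1 (60.6 and 22.1, under 30 points apart with the mean over probe sets) and the collagen chain Col4a5 (75.2 and 8.27), and 2 in testis.

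In metabolism, genes of cholesterol synthesis stood on the Sertoli side against testis, but not against TM4. Their median rank was 75.2 in Sertoli cells, 49.8 in testis and 77.9 in TM4. Between Sertoli cells and TM4 0 members stood 30 points apart in either direction. Of 22 genes 16 were shared, with a median difference of 27.2, 6 (37.5%) higher in Sertoli cells and 1 in testis, against 18.3% and 18.2% of all shared genes. Insig1, the sterol sensor of the pathway, ranked 88.4 in Sertoli cells and 0.037 in testis. Its only single-gene probe set in testis read 1, the lowest value on that array. The demethylase Cyp51, which germ cells also express, ranked 88.0 and 19.5, Hsd17b7 64.8 and 2.87, and Sc5d 68.4 and 14.5. The sterol reductase Tm7sf2 was on the testis side (33.2 and 75.6), by -42.4 points or -29.9 with the mean over probe sets. In the knockout pair the median was 21.2 with the same counts of 6 and 1. Glycolysis genes (18 of 22 shared) had a median of -3.46 with 4 on each side. The members on the Sertoli side included the glucose transporter Slc2a1 (79.2 and 26.8) and Slc16a1, which carries lactate (93.1 and 15.4), the product Sertoli cells deliver to germ cells, while Pfkp, a phosphofructokinase, was at 22.2 and 68.6.

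Genes that drive division were also listed. Sertoli cells stop dividing before this age, whereas spermatogonia go on. Of 46 cell cycle genes 41 were shared, with a median difference of -13.7, 2 higher in Sertoli cells (4.88%) and 11 in testis (26.8%), against 18.3% and 18.2% of all shared genes. The median was -0.602 for genes with 1 probe set in both tables, of which only 7 were left. The median rank was 42.3 in Sertoli cells, 62.7 in testis and 87.7 in the dividing TM4 line. There 30 of 41 genes ranked at least 30 points above the primary cells and 0 below, against 6.56% and 7.31% of all shared genes. The kinase Aurkb ranked 10.2 in Sertoli cells, 76.6 in testis and 75.7 in TM4.

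Growth factors of the stem cell niche fell on both sides. The counts of this and the next 3 lists are to be read against all shared genes. Of these 18.3% were higher in Sertoli cells and 18.2% higher in testis. Of 26 genes 22 were shared, with a median of 0.98, 4 higher in Sertoli cells and 7 in testis, and 7 lay below the floor in testis. The list's median was 21.5 points with plain probe sets, over 16 genes, and -2.28 with the probe set brightest over its table. Besides Kitl and Il6, those on the Sertoli side were Vegfa (55.8 and 3.27) and Wnt3a (41.6 and 10.8). Besides Gdnf, Inhba and Bmp4, those on the testis side were the insulin-like growth factors Igf1 (23.6 and 79.8) and Igf2 (27.8 and 86.0; -26.9 points with the mean and 28.3 with plain probe sets), the TAM receptor ligand Gas6 (26.3 and 65.6) and the Notch ligand Dll1 (8.67 and 59.0; 2.23 points with the mean). The system of insulin-like growth factors, with receptors and binding proteins (13 of 15 shared), had a median of 3.79, 1 gene higher in Sertoli cells and 3 in testis. ETS factors, the family of ERM (17 of 24 shared), had a median of -2.18, 5 higher in Sertoli cells and 4 in testis. Ets1 ranked 75.2 in Sertoli cells and 4.20 in testis, Elf1 69.9 and 6.46, and Etv4, of the same subfamily as ERM, 26.8 and 86.2, a difference of -59.4 points that was -3.97 with plain probe sets. Retinoic acid pathway genes (16 of 21) had a median of -4.19, with 3 higher in Sertoli cells and 2 in testis. Aldh1a1, which makes retinoic acid in Sertoli cells, ranked 99.3 and 99.4, and the binding protein Crabp2 58.2 and 5.79.

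**Figure D5:**
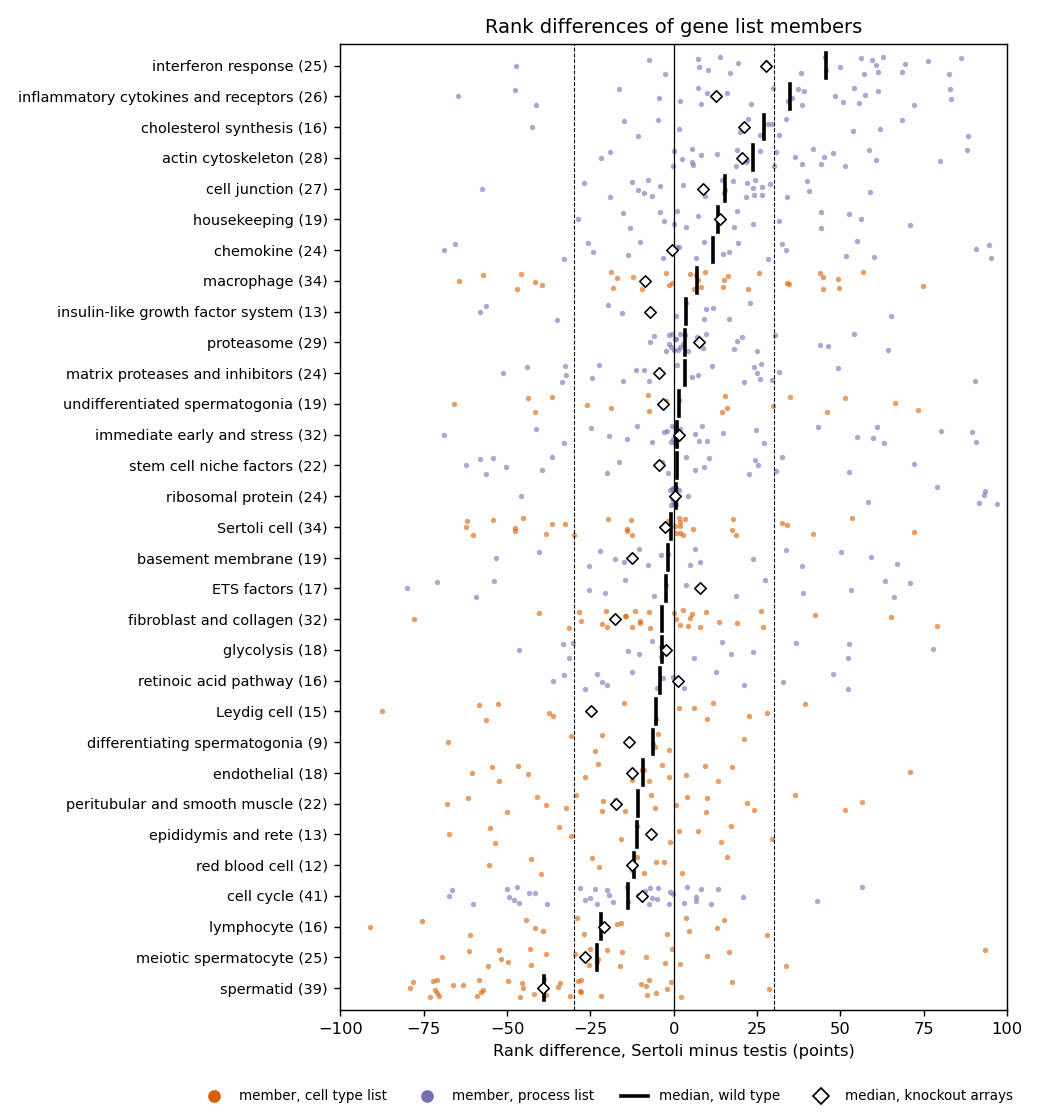
Rank difference, Sertoli minus testis (horizontal axis, points), of every shared member (points) of each gene list (vertical axis), orange for cell types and purple for processes, with the wild-type median as a black bar, the median of the arrays labelled knockout as an open diamond and the number of shared members in brackets. Dashed lines mark 30 points; the interferon response median lies at 45.8, the spermatid median at -38.9, and single members of most lists reach far to both sides.

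Genes made in nearly all cells differed in single members too. Ribosomal protein genes (24 of 59 shared) had a median of 0.62 and median ranks of 99.3 in Sertoli cells and 98.3 in testis, with 6 higher in Sertoli cells (25%) and 1 in testis, against 18.3% and 18.2% of all shared genes. Rpl38, Rps14, Rps20 and Rps15 ranked 99.9, 99.7, 99.6 and 96.9 in Sertoli cells and 2.78, 6.27, 6.56 and 5.24 in testis, where all 4 were below the floor. The difference of Rps20 was 93.1 points, but 22.0 with plain probe sets. Rpl8, Rplp0 and Rpl41, of the same ribosome, ranked above 98 on both arrays. All are parts of the same particle in every cell, yet their testis ranks ran from one end of the scale to the other. Proteasome genes (29 of 29) had a median of 3.37, with 5 higher in Sertoli cells (17.2%, about the share of all genes) and 0 in testis, and other widely expressed genes (19 of 25) of 13.2, with 6 and 0. Immediate early and stress genes (32 of 32) had a median of 1.15, with 8 and 3, among them Fos (72.3 and 12.5), Egr1 (91.5 and 48.2) and, on the other side, Fosb (7.35 and 76.3). Matrix proteases and their inhibitors (24 of 32) had a median of 3.28, with 3 higher in Sertoli cells and 5 in testis. The former included Serpinb2 (94.5 and 4.10) and Mmp12 (86.7 and 37.5). The latter included Mmp11 (11.1 and 62.4), Mmp16 (12.8 and 57.0) and Mmp8 (9.60 and 43.0).

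Of the 15 largest differences to each side that the mean over probe sets shared, nearly all involved a gene below the floor on 1 array. To the Sertoli side, at 90.9 to 97.1 points, stood the 4 ribosomal genes Rpl38, Rps14, Rps20 and Rps15, the RNA-binding protein Serbp1, the GTPase Rap1b, the chemokines Ccl2 and Cxcl5, the interferon-inducible Ifi202b, Sycp3, the mannose 6-phosphate receptor M6pr, the cytochrome Cyp1b1, the syntenin gene Sdcbp, Ier3 and the translocon subunit Ssr4. All 15 were below the floor in testis, and 3 rested on testis probe sets of the relaxed kind. To the testis side, at 88.5 to 97.2 points, stood Klk1b1, Tyms-ps, Sprr2j-ps, Guca2b, Polm, Prph2, Hoxa4, Ms4a1, Slc6a18, Krt35, Prss32, Krtdap, Krt36, Sit1 and Foxl1. These include genes known from gut (Guca2b), retina (Prph2), hair and epidermis (Krt35, Krt36, Krtdap) and B cells (Ms4a1). All but Krt36 were below the floor in Sertoli cells, and 4 rested on testis probe sets of the relaxed kind. All 30 differed by at least 30 points in the same direction in the knockout pair, which has the same probe sets.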

How the data were processed

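Total RNA of mouse testis, primary Sertoli cells and TM4 cells had been hybridised to 7 single-colour Affymetrix arrays, 1 per group, and each group was read from the sample titles. The authors deposited 1 intensity per probe set, linear and never under 1. How these were computed and scaled, and the genome build, are not stated in any label or header used here. Both tables held 0 value columns that could not be tied to a sample. Probe sets were named from the platform annotation, and those with several genes (932 in the Sertoli and TM4 table, 396 in the testis table), with none (9160 and 1193) or for controls (64 and 66) were left out. Gene names of 8097 of the 8107 shared genes were matched to RefSeq.

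Per gene and array the brightest single-gene probe set was kept and ranked over the shared genes. The trimmed mean of an array (2nd to 98th percentile) was 299 for wild-type Sertoli cells and 468 for wild-type testis, and 8.22% and 10.6% of shared genes lay below 0.2 of it. The 31 gene lists (13 of cell types, 18 of processes), the paralog pairs and the members were chosen with earlier results of these data known. Genes were named if they were among the 15 with the largest difference in each direction, with the mean over probe sets at least 30 points the same way and a higher rank of 50 or more, or if they were one of up to 5 members per list by size of difference, a gene of a paralog pair or a defining gene of a cell type. Other list members named in the text were picked for their known roles after their values were seen. Alternatives were the mean over probe sets, genes with 1 probe set in both tables, plain probe set names, no genes below the floor on both arrays, ties at the floor, the probe set brightest over its table and thresholds of 20 and 40 points. The code of the ranking was checked on simulated data with known answers, which says nothing about the precision of these arrays. The tools were pandas 2.3.3, numpy 2.4.6 and scipy 1.17.1 under Python 3.11.15, with matplotlib 3.10.9 for plots.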

Additional observations from a re-analysis of the deposited data

Results flagged for a closer look

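For 3 gene lists the wild-type and the knockout pair of Sertoli cells and testis gave medians of opposite sign that lay at least 10 points apart. The macrophage list had a median rank difference, Sertoli minus testis, of 7.14 points in wild type and -8.57 in the pair labelled knockout. The chemokine list had 11.9 and -0.5 points. The list of the insulin-like growth factor system had 3.79 and -7.12 points, with a median testis rank of 37.9 in wild type and 55.8 in knockout. With 1 array per group the difference between the pairs was not tested.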

How the results depend on the processing

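Among the 2659 genes with 1 probe set on each design, 452 stood higher in Sertoli cells and 470 higher in testis, a smaller set by construction. A threshold of 40 points gave 942 and 997, and one of 20 points 2129 and 2130. Genes with several probe sets within 20 points of each other on both arrays, a choice made after seeing the data, left 184 genes with 26 and 30 past 30 points and a correlation of 0.498 between the arrays. Under the other alternatives the counts were 1284 to 1505 and 1316 to 1522 and the correlation, with genes of 1 probe set included, 0.27 to 0.363. The 14 lists of 31 with a median at least 10 points from 0 kept its sign under every alternative that left at least 5 members, with ranges of -44.4 to -28.1 for spermatids, 40.4 to 53.4 for interferon response, 17.7 to 28.3 for actin, 26.3 to 27.8 for cholesterol synthesis and 1.77 to 21.8 for junctions. The median of cell cycle genes was -0.602 for the 7 genes left with 1 probe set in both tables, and the cause was not tested. Among lists nearer 0, the median of niche factors ranged from -2.28 to 21.5, of Sertoli cell genes from -6.65 to 2.09 and of matrix proteases from -5.32 to 10.3. No paired analysis was possible because each group has 1 array. Dim probe sets limit what a low rank can show.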
